A study of Bos taurus with 52 samples.

Results

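The nuclear genes of the mitochondrial respiratory chain and ATP synthase were examined in the endometrium and in day 17 conceptuses of heifers. The genes were the rows of the deposited count table whose names begin with NDUFA, NDUFB, NDUFC, NDUFS or NDUFV and a digit, with UQCR, with COX4 to COX8, or with ATP5. This name rule took 78 of the 31651 named genes: 36 of complex I, 8 of complex III, 17 of complex IV and 17 of complex V. It used no measured value. Of the 78, 75 code for structural subunits. The other 3 are COX7A2L, a factor that joins complexes III and IV into supercomplexes, and ATP5S and ATP5SL, now called DMAC2L and DMAC2, which are named after the ATP synthase but are not subunits of it. COX6C and COX7C were not analysed here. Subunit genes with other names were left out of the counts, among them CYC1, cytochrome c1 of complex III, which is given with related genes below.

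Each heifer belonged to a fertility class: HF for high fertile, SF for subfertile, IF for infertile. The endometrium, the lining of the uterus, came from 25 animals in 5 groups of 5. Animals without a pregnancy formed the groups NP-HF, NP-SF and NP-IF, named by class, and pregnant animals of day 17 formed P-HF and P-SF. The sources used here name no breed, no ages and no day for the 3 NP groups. The 27 conceptuses of day 17, each an embryo with its extraembryonic membranes, formed 3 groups: C-SF, with 10 from SF recipients, and, from HF recipients, C-HF-long with 10 labelled long and C-HF-short with 7 labelled short. They came from 19 recipients, 8 of which gave 2 conceptuses, so not all conceptuses of a group are independent. No pregnant IF endometrium and no conceptus of an IF recipient was among the samples analysed here.

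Complex I passes electrons from NADH to ubiquinone, complex III passes them on to cytochrome c, and complex IV (cytochrome c oxidase) passes them to oxygen. These 3 complexes pump protons out of the matrix, and complex V, the ATP synthase, makes ATP as the protons flow back. Most subunits are coded in the nucleus and imported, and their genes are transcribed in nearly every tissue. A few complex IV subunits have a second gene that is used in particular tissues: COX4I2 in lung, COX6A2, COX7A1 and COX8B in heart and skeletal muscle, and COX6B2 and COX7B2 in testis. NDUFA4L2 is a hypoxia-induced relative of NDUFA4, which was long counted with complex I and is now placed in complex IV. The elongating ruminant conceptus is mostly trophectoderm, a tissue rich in active mitochondria.

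Total counts were 17077635 to 27292222 reads per endometrial library and 20549492 to 46966995 per conceptus library, with 23085 to 24500 and 18818 to 22694 genes detected. Marker genes followed the labelled tissues. Summed over 7 stromal markers, endometrial libraries had 4943 to 24126 CPM (read counts scaled to library size) and conceptus libraries 2.74 to 100.5 CPM. Summed over 10 trophoblast markers, conceptus libraries had 21313 to 98538 CPM and endometrial libraries 288 to 438 CPM, and PAG2 was at 0 in every P-HF and P-SF library. The description fields of 22 of the 27 conceptus samples named a different conceptus from their titles. Titles were used to form the groups, and results with the descriptions instead are given beside the conceptus comparisons.

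Together the 78 genes took 0.402% ± 0.0405 (SD, n = 25) of all counts in endometrium and 1.35% ± 0.149 (SD, n = 27) in conceptuses. The endometrial libraries ranged from 0.342% to 0.515% and the conceptus libraries from 1.07% to 1.73%, so that no library of one tissue reached the range of the other. The ATP synthase genes accounted for much of the gap, with 0.161% ± 0.0151 (SD, n = 25) of counts in endometrium and 0.692% ± 0.0708 (SD, n = 27) in conceptuses. The complex I genes took 0.13% ± 0.0107 (SD) and 0.329% ± 0.0399 (SD) of the counts. The 2 tissues went through different extraction reagents, and tissue and reagent cannot be told apart, so no gene was tested between tissues.

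Within the endometrium the shares overlapped between all groups. They were 0.408% ± 0.0356 in NP-HF, 0.385% ± 0.0302 in NP-SF, 0.377% ± 0.0271 in NP-IF, 0.438% ± 0.0463 in P-HF and 0.4% ± 0.0442 in P-SF (SD, n = 5 each). A few libraries were high for most of the genes at once. Of the 74 genes that passed the filter on low counts in endometrium, P-SF replicate 5 was the highest of its group in 68, P-HF replicate 3 in 59, NP-SF replicate 3 in 57 and NP-HF replicate 4 in 47. P-HF replicate 1 was the lowest P-HF library in 45. In NP-IF no library was highest for most genes, and replicates 1 and 4 were each the highest in 27. In the other groups many of the genes were thus highest in the same library, and 1 library could shift many of them. How often these libraries were the highest over all genes tested is not given here.

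In pregnant HF endometrium, 13 of the 74 genes rose and 1 fell compared with non-pregnant HF endometrium, at an adjusted p under 0.05 (edgeR quasi-likelihood, Benjamini-Hochberg over 19606 genes). Pregnancy changed a large part of the transcriptome in this comparison, and 20.8% of all genes tested were called, 10.2% higher and 10.6% lower. The share of respiratory chain genes called in either direction, 18.9%, was close to that background. The share called higher was 17.6% and the share called lower 1.35%. The changes were small. The median log2 fold change of the 74 genes was 0.24, beside -0.01 over all genes tested, and 66 of 74 were above 0, beside 9593 of 19606. An unadjusted p under 0.05 was reached by 33 of the 74.

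**Figure D1:**
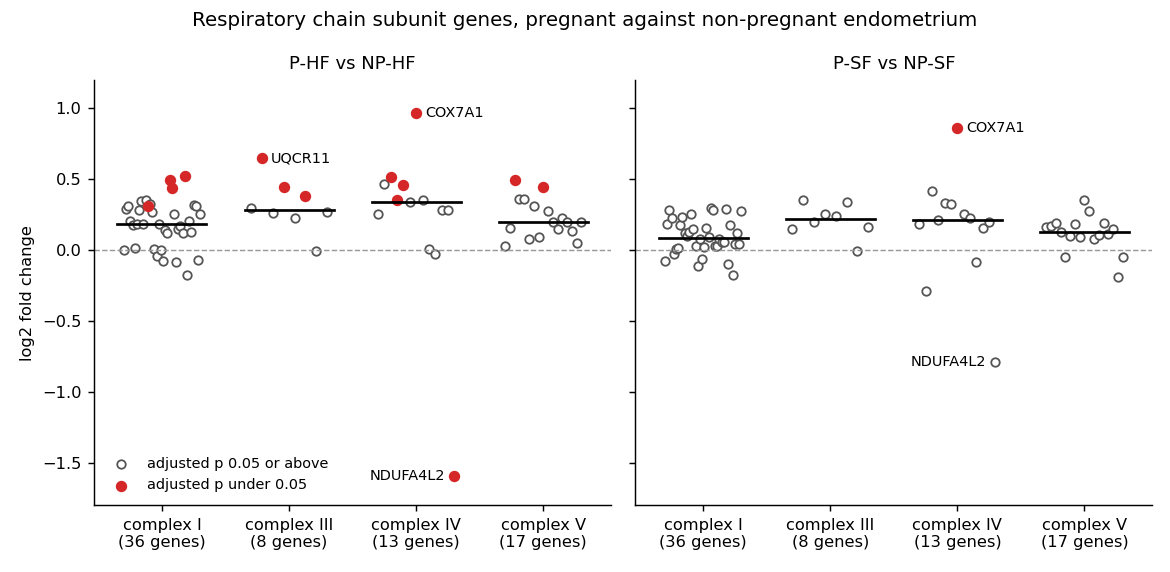
Log2 fold changes (y axis) of the respiratory chain and ATP synthase genes by complex (x axis) in pregnant against non-pregnant endometrium of HF heifers (left) and SF heifers (right), 5 libraries in each group. Each point is 1 gene, filled where the adjusted p was under 0.05, and black lines are medians by complex. In HF heifers 13 filled points lie above 0 and NDUFA4L2 lies below it, and in SF heifers COX7A1 is the one filled point.

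The largest rise was that of COX7A1, the heart and muscle form of complex IV subunit VIIa. Its level was 9.85, 8.81, 10.5, 10.1 and 7.52 CPM in the 5 NP-HF libraries and 10.2, 13.6, 22.9, 15.9 and 28.8 CPM in the 5 P-HF libraries. P-HF replicate 1, at 10.2 CPM, lay within the NP-HF range and the other 4 lay above it. The log2 fold change was 0.97 ± 0.22 (SE, n = 5 and 5; edgeR adjusted p = 0.00269). NDUFA4L2 was the one gene that fell. It stood at 2.10, 2.26, 1.86, 2.43 and 1.82 CPM in NP-HF and at 1.13, 1.01, 0.316, 0.653 and 0.429 CPM in P-HF. All 5 pregnant libraries lay below all 5 non-pregnant ones, at a low level of 8 to 20 reads per P-HF library. Its log2 fold change was -1.60 ± 0.40 (SE; edgeR adjusted p = 0.00651).

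Among the ATP synthase genes, 2 of 17 rose. ATP5C1, the gamma subunit that forms the rotating shaft of the F1 head, had 107, 116, 120, 148 and 127 CPM in NP-HF and 169, 162, 204, 162 and 173 CPM in P-HF. The 2 groups did not overlap, and P-HF replicate 3 stood above the other pregnant libraries. The log2 fold change was 0.50 ± 0.12 (SE; edgeR adjusted p = 0.00346). ATP5G3, 1 of 3 genes for the same subunit of the c ring, went from a mean of 79.3 ± 14.2 to 108 ± 20.9 CPM (SD, n = 5 each), and the groups overlapped. It was called at a log2 fold change of 0.45 ± 0.15 (SE; edgeR adjusted p = 0.0316). All 17 fold changes of complex V were positive in this fit, with a median of 0.20.

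In complex I, 4 of 36 genes rose and the median log2 fold change was 0.19. NDUFB8, a membrane arm subunit, had 35.0, 34.6, 34.2, 34.8 and 29.4 CPM in NP-HF and 42.5, 42.3, 57.3, 44.3 and 50.5 CPM in P-HF, without overlap. Its log2 fold change was 0.50 ± 0.12 (SE; edgeR adjusted p = 0.00419). NDUFB9, also of the membrane arm, rose by 0.44 ± 0.12 (SE; edgeR adjusted p = 0.0101) on the log2 scale. NDUFS4, an accessory subunit of the peripheral arm, stood at 25.9 to 36.4 CPM in NP-HF and at 30.8 to 54.5 CPM in P-HF, where only P-HF replicate 4 lay within the NP-HF range. It rose by 0.52 ± 0.14 (SE; edgeR adjusted p = 0.0107). NDUFA9, a peripheral arm subunit next to the quinone site, had the smallest rise of the 13, 0.31 ± 0.11 (SE; edgeR adjusted p = 0.0449). None of the 7 core subunits of the peripheral arm, which carry the flavin and iron-sulfur clusters, passed the test. The smallest p among the 7 was that of NDUFV1, at a log2 fold change of 0.31 ± 0.12 (SE; edgeR adjusted p = 0.0751).

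Complexes III and IV had the higher shares of called genes, and these differences between complexes were not tested. In complex III, 3 of 8 genes rose, with a median log2 fold change of 0.28 over the 8. UQCR11, the smallest subunit, had 19.6, 20.4, 23.1, 34.2 and 24.7 CPM in NP-HF and 27.3, 39.2, 53.2, 32.6 and 38.4 CPM in P-HF. NP-HF replicate 4 lay inside the P-HF range, and the log2 fold change was 0.65 ± 0.18 (SE; edgeR adjusted p = 0.0146). UQCRC1, a core subunit on the matrix side, rose by 0.45 ± 0.13 (SE; edgeR adjusted p = 0.0161). UQCRFS1, the Rieske iron-sulfur protein, rose by 0.38 ± 0.13 (SE; edgeR adjusted p = 0.0406). In complex IV, beside COX7A1 and NDUFA4L2, 3 of 9 widely expressed subunits rose, and the median over the 13 tested genes was 0.34. COX5A had 42.6, 48.4, 52.2, 69.3 and 48.6 CPM in NP-HF and 58.5, 72.8, 92.6, 71.3 and 78.2 CPM in P-HF, and rose by 0.52 ± 0.15 (SE; edgeR adjusted p = 0.0152). COX6A1 rose by 0.46 ± 0.15 (SE; edgeR adjusted p = 0.0286) and COX5B by 0.36 ± 0.13 (SE; edgeR adjusted p = 0.0458). The next gene in order of p, NDUFA8 of complex I, missed the threshold at an adjusted p of 0.0534 in edgeR's test. COX7A2L (0.01 ± 0.13, SE), ATP5S (0.05 ± 0.14) and ATP5SL (0.20 ± 0.09) were not called, in log2 fold change.

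**Figure D2:**
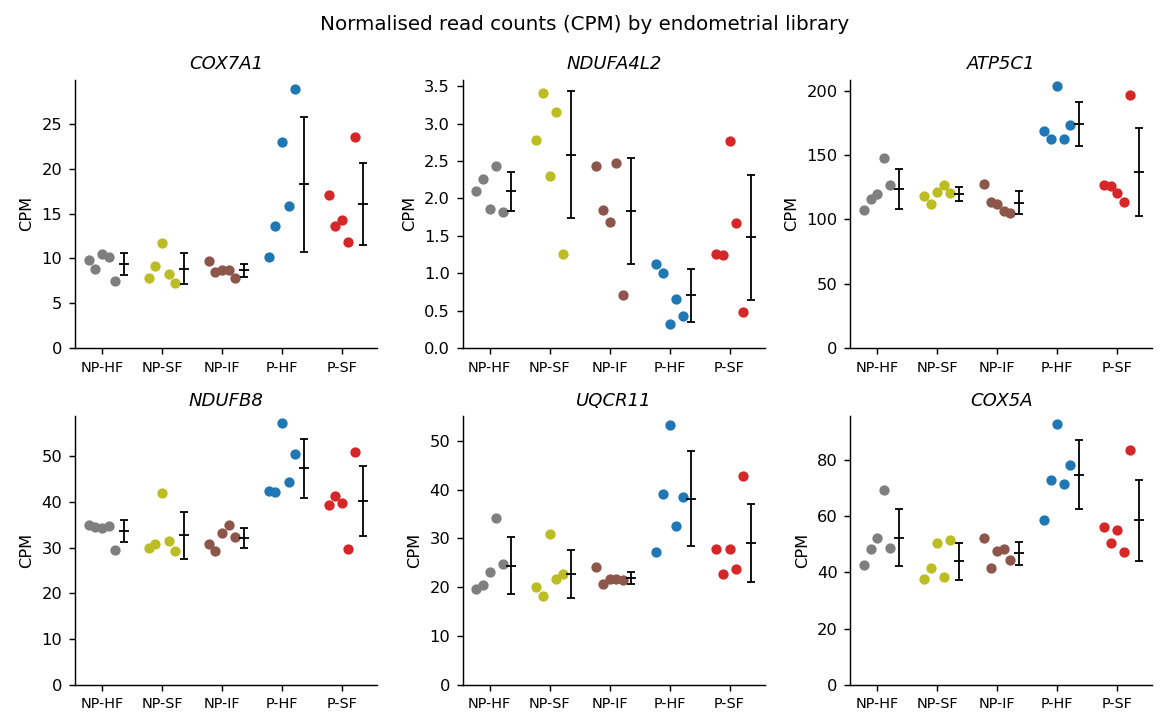
Normalised read counts (CPM, y axis, from 0) of 6 genes in each endometrial library by group (x axis), with the mean and SD (n = 5) to the right of each group's points. ATP5C1 and NDUFB8 in P-HF lie above every NP-HF library, NDUFA4L2 in P-HF lies below every NP-HF library, and 1 P-SF library, at 197 CPM for ATP5C1, stands apart from the other 4.

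The count of called genes moved with single libraries and with the scaling. Leaving out P-HF replicate 3, the library highest for 59 of the 74 genes, left 6 called, and leaving out NP-HF replicate 2 left 9. With P-HF replicate 1, the lowest for 45 genes, left out together with P-SF replicate 5, 30 were called, 29 higher and 1 lower. Leaving out that low library raises P-HF against NP-HF for those genes by construction, so the added calls are no separate evidence. The share of all genes called under the settings of this paragraph is not given here. With library totals alone and no scaling, which lowers every log2 change by about the same amount (median over all genes -0.12), 7 genes were called higher and 2 lower, the added lower one being NDUFS5 (-0.28 ± 0.08, SE; edgeR adjusted p = 0.00914). COX7A1, ATP5C1, NDUFB8, NDUFB9, NDUFS4 and NDUFA4L2 kept their calls and their directions in each of the 17 alternatives run, which included each library of the comparison left out in turn. NDUFA9 kept its call in 6 of the 17, COX5B in 7, UQCRFS1 and ATP5G3 in 9 and COX6A1 in 11.

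Related genes that the name rule did not take were read from lists. CYC1 codes for cytochrome c1, itself a subunit of complex III, and CYCS for cytochrome c, which complex III reduces and complex IV oxidises. Both rose in P-HF, by 0.46 ± 0.12 (SE; edgeR adjusted p = 0.00955) and 0.49 ± 0.14 (SE; edgeR adjusted p = 0.0182). None of the 4 complex II genes was called, with SDHA at 0.25 ± 0.11 (SE; edgeR adjusted p = 0.0996). Of the complex I assembly factors 0 of 15 were called, and of the complex IV assembly factors 3 of 20 rose, namely the copper proteins COX17, SCO1 and COA6. Of 5 complex III assembly factors TTC19 rose by 0.32 ± 0.09 (SE; edgeR adjusted p = 0.0154) and LYRM7 fell by 0.40 (edgeR adjusted p = 0.0311). Of 4 complex V factors 1 was called, ATPIF1, the inhibitor of ATP hydrolysis by the synthase, which rose by 0.83 ± 0.20 (SE; edgeR adjusted p = 0.00385). Of 17 regulators of mitochondrial biogenesis none rose and ESRRG, an estrogen-related receptor, fell by 2.95 on the log2 scale (edgeR adjusted p = 0.000574). Of 77 mitochondrial ribosomal protein genes 16 rose and 5 fell (median 0.17), and of 76 cytosolic ones 1 rose and 15 fell (median -0.05).

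Markers of cell types moved in the same comparison. Of 7 epithelial markers 3 rose (CDH1, CLDN3 and CLDN4), and their summed level was 970 to 1286 CPM in NP-HF and 1491 to 1782 CPM in P-HF. EPCAM and KRT8 were higher without a call. KRT18 (-0.07 ± 0.14, SE) and KRT19 (-0.02 ± 0.20, SE) did not rise. Of 7 stromal markers 4 fell (COL1A1, COL1A2, COL3A1 and THY1), and their summed level was 12396 to 24126 CPM in NP-HF and 4943 to 8176 CPM in P-HF. DCN (-0.27 ± 0.14, SE) and LUM (-0.19 ± 0.14, SE) were lower without a call. PDGFRA went the other way, also without a call (0.41 ± 0.20, SE; edgeR adjusted p = 0.154). Of 5 immune markers 2 rose, of 5 endothelial markers 2 fell, and of 5 smooth muscle markers none was called. P-HF replicate 3 and P-SF replicate 5, the pregnant libraries highest for most respiratory chain genes, also had the highest epithelial sums of their groups, 1782 and 1557 CPM. The sums of NP-SF replicate 3 and NP-HF replicate 4, which were also high for most of the genes, are not given here. The part of these markers in the results was not tested. In bulk tissue, fewer cells of a type and less RNA per cell cannot be told apart.

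In pregnant SF endometrium, COX7A1 was the one gene of 74 that rose compared with non-pregnant SF endometrium, and none fell. Over all genes tested 4.07% were called, 3.18% higher and 0.887% lower, and the members' share was 1.35%. COX7A1 had 7.84, 9.20, 11.74, 8.28 and 7.30 CPM in NP-SF and 17.1, 13.6, 14.3, 11.88 and 23.6 CPM in P-SF. The groups did not overlap, the nearest libraries being at 11.74 and 11.88 CPM. The log2 fold change was 0.86 ± 0.22 (SE, n = 5 and 5; edgeR adjusted p = 0.0234). The call was lost, with 0 genes called, when NP-SF replicate 1, 4 or 5 or P-SF replicate 1 or 5 was left out, and without P-SF replicate 4 a second gene, NDUFB8, was called at 0.39 ± 0.11 (SE; edgeR adjusted p = 0.0477). The median of the 74 genes was 0.15, beside -0.01 over all genes, and 61 were above 0. With no scaling between libraries the median was 0.05 beside -0.10 over all genes. NDUFA4L2 was at a mean of 2.58 ± 0.849 CPM in NP-SF and 1.48 ± 0.835 CPM in P-SF (SD, n = 5 each), and the groups overlapped. COX7A2L (0.22 ± 0.13, SE), ATP5S (-0.19 ± 0.14) and ATP5SL (-0.05 ± 0.09) were not called, in log2 fold change. Of the related lists SCO1 rose by 0.40 ± 0.09 (SE; edgeR adjusted p = 0.00757) and LYRM7 fell by 0.47 (edgeR adjusted p = 0.0445). CDH1 was the one epithelial marker of 7 called, higher by 0.48 ± 0.14 (SE; edgeR adjusted p = 0.0468), and the epithelial sums were 911 to 1424 CPM in NP-SF and 1280 to 1557 CPM in P-SF. No stromal marker was called, at sums of 10566 to 15945 CPM and 9410 to 11983 CPM. The part of these markers in the result was not tested.

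Whether pregnancy acted differently in the 2 fertility classes was tested directly, as the pregnancy change in SF minus that in HF. None of the 74 genes was called, beside 0.0051% of all genes, and none had an unadjusted p under 0.05. DESeq2 and limma-voom also called none. The 2 genes with the smallest p were ATP5SL, at -0.24 ± 0.13 (SE; edgeR adjusted p = 0.748), and ATP5C1, at -0.30 ± 0.16 (SE; edgeR adjusted p = 0.759), in log2. The median difference over the 74 genes was -0.08, beside 0.01 over all genes. The larger count of calls in HF than in SF heifers is therefore not shown to be a difference between the classes.

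Pregnant SF and pregnant HF endometrium were also compared with each other, and none of the 74 genes was called, beside 0% of all genes tested. An unadjusted p under 0.05 was reached by 8 of the 74, and DESeq2 and limma-voom also called none of them, although DESeq2 called 97 of all genes. The median log2 difference, P-SF minus P-HF, was -0.17, and 67 of 74 were below 0, beside a median of 0.00 and 9871 of 19606 over all genes. ATP5C1 had 127, 126, 120 and 114 CPM in P-SF replicates 1 to 4 and 197 CPM in P-SF replicate 5, against 162 to 204 CPM in P-HF. Its log2 difference was -0.35 ± 0.12 (SE; edgeR adjusted p = 0.317). NDUFA4L2 was at 1.25, 1.24, 2.77, 1.67 and 0.486 CPM in P-SF and differed from P-HF by 1.10 ± 0.41 (SE; edgeR adjusted p = 0.372). COX7A2L (0.03 ± 0.13, SE), ATP5S (0.16 ± 0.14) and ATP5SL (-0.14 ± 0.09) were not called.

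This comparison turned on 2 libraries. Without P-SF replicate 5, ATP5C1 was called lower in P-SF at -0.52 ± 0.08 (SE; edgeR adjusted p = 0.0178). With P-HF replicate 1 left out as well, 13 of the genes were called. The share of all genes called in that fit is not given here. NDUFA4L2 was then higher in P-SF, at 1.56 ± 0.40 (SE; edgeR adjusted p = 0.035). The 12 lower ones were ATP5C1, ATP5D, ATP5G3, COX5A, COX5B, COX6A1, COX6B1, NDUFA4, NDUFA10, NDUFB3, NDUFB9 and UQCR11, with log2 differences from -0.68 (UQCR11) to -0.36 (NDUFB3). The 2 libraries were chosen because earlier results of these data had set them apart. They are also the P-SF library highest for 68 of the 74 genes and the P-HF library lowest for 45, so leaving them out lowers P-SF against P-HF by construction, and the 13 calls are no separate evidence of a difference. The labels give no reason to leave either out.

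Among the non-pregnant groups no respiratory chain gene was called. Called genes numbered 0 of 74 in NP-SF against NP-HF, in NP-IF against NP-HF and in NP-IF against NP-SF, beside 0% of all genes tested in each, and DESeq2 and limma-voom called none either. Unadjusted p values under 0.05 were reached by 2, 2 and 1 of the 74. The medians were -0.09, -0.13 and -0.04 in log2, against medians between -0.01 and 0.00 over all genes. These comparisons share libraries, so their medians are not independent. ATP5S had 12.99 to 16.4 CPM in NP-HF and 16.2 to 22.9 CPM in NP-SF, a difference of 0.40 ± 0.14 (SE; edgeR adjusted p = 0.999), and in NP-IF, at 13.6 to 17.1 CPM, it differed from NP-SF by -0.31 ± 0.14 (SE; edgeR adjusted p = 0.999). NDUFA2, a peripheral arm subunit, had 12.2 to 15.6 CPM in NP-HF and 9.48 to 12.8 CPM in NP-IF (-0.39 ± 0.13, SE; edgeR adjusted p = 0.903). NDUFS5 was at -0.17 ± 0.08 (SE; edgeR adjusted p = 0.999) in NP-SF and -0.18 ± 0.08 (SE; edgeR adjusted p = 0.903) in NP-IF against NP-HF, and NDUFA9 at -0.20 ± 0.11 (SE; edgeR adjusted p = 0.999) in NP-IF against NP-SF. The median SE over the 74 genes was 0.12 in log2, which limits the size of a change that 5 animals per group can show.

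The tissue isoforms are described as ratios of reads, which are not corrected for transcript length and so compare groups, not genes. COX7A1 had 46.6% ± 8.66 as many reads as COX7A2, its widely expressed partner, in NP-HF and 69.4% ± 21.3 in P-HF. In SF heifers the ratio was 49.5% ± 8.95 in NP-SF and 73% ± 8.95 in P-SF, and in NP-IF it was 47.7% ± 7.47 (SD, n = 5 each). The 5 NP-SF libraries reached at most 57.7% and the 5 P-SF libraries began at 60.8%, whereas P-HF, at 48.3% to 105%, overlapped NP-HF. In conceptuses COX7A1 was almost undetected, with 0 to 18 reads per library and at most 0.373% of the COX7A2 reads. NDUFA4L2 had 2.48% ± 0.396 of the reads of NDUFA4 in NP-HF and 0.715% ± 0.429 in P-HF, and 3.63% ± 1.52 in NP-SF and 1.91% ± 1.15 in P-SF. The SF groups overlapped.

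**Figure D3:**
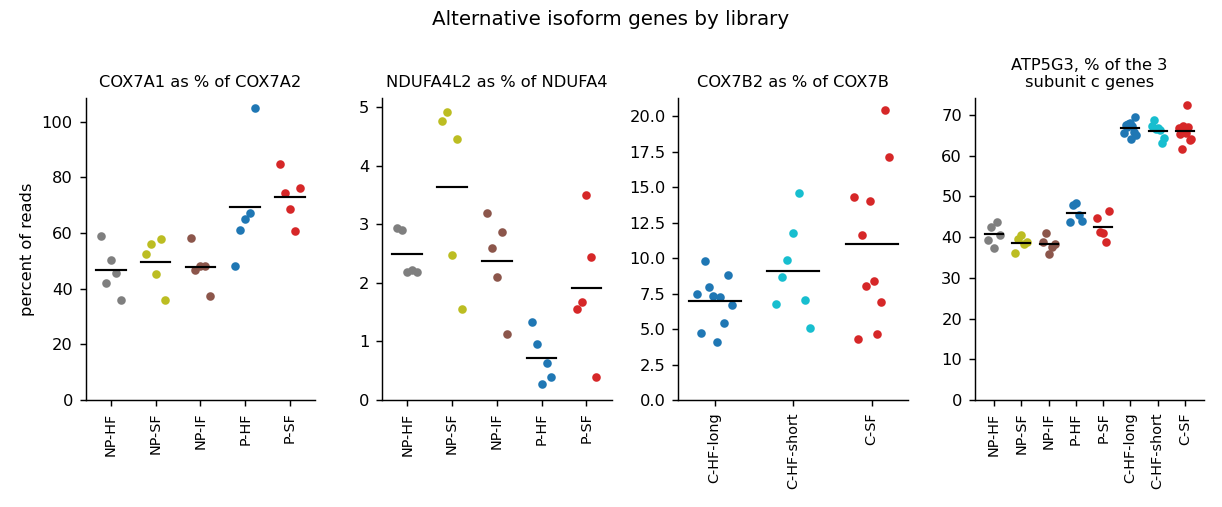
Reads of an alternative isoform gene as percent of its partner, or of all 3 subunit c genes (y axes, from 0), by group (x axes). Each point is 1 library and black lines are group means. COX7A1 is higher relative to COX7A2 in both pregnant groups, NDUFA4L2 relative to NDUFA4 is lower in P-HF (mean 0.715%) than in the other endometrial groups, and ATP5G3 is near 66% of the subunit c reads in all 3 conceptus groups.

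The widely expressed partners gave most of the reads in conceptuses too, while COX7A1 and NDUFA4L2 were nearly without reads. COX7B2, known from testis, had 130 to 818 reads per conceptus library and 0 to 27 per endometrial library. COX6B2 had 5 to 82 reads per conceptus library and at most 6 per endometrial library. Relative to COX6B1 the ranges overlapped, from 0.43% to 3.11% in conceptuses and from 0% to 3.03% in endometrium, where COX6B1 had 190 to 504 reads per library. In C-SF against C-HF-long COX6B2 differed by 0.06 ± 0.35 (SE; edgeR adjusted p = 0.932). COX4I2 had 5 to 45 reads per endometrial library, at most 1.22% of COX4I1, and 0 to 8 per conceptus library. Its log2 fold change with pregnancy was 0.47 ± 0.42 in HF heifers (SE; edgeR adjusted p = 0.481) and -0.29 ± 0.41 in SF heifers (SE; edgeR adjusted p = 0.791). The muscle genes COX6A2 and COX8B had at most 6 and 24 reads in any library. The proteolipid of the c ring, identical in its mature form whichever of 3 genes it comes from, was drawn from a different mix: ATP5G3 gave 38.3% to 45.9% of the subunit c reads as means of the endometrial groups and 66% to 66.8% of those in conceptuses. ATP5G2 gave 42.8% to 50.7% in endometrium and 13.7% to 15.3% in conceptuses, and ATP5G1 gave 10.9% to 11.5% and 18.6% to 19.8%. Within endometrium the ATP5G3 share was highest in P-HF, at 45.9% ± 2.09 beside 40.7% ± 2.54 in NP-HF (SD, n = 5 each).

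In conceptuses of SF recipients, 9 of 73 genes were called higher than in long conceptuses of HF recipients and none lower, by edgeR's quasi-likelihood test. The covariate was the sample sheet, a series of library numbers inferred from the description fields. Most C-SF conceptuses with a stated length were shorter than every C-HF-long conceptus with one. Fertility class and length therefore cannot be told apart in this comparison. The share called was 12.3%, beside 8.9% of all 16330 genes tested, and the share called higher was 12.3% beside 3.8%. Over all genes 5.1% were called lower. The median log2 difference of the 73 genes was 0.25, beside 0.03 over all genes, and 71 of 73 were above 0, beside 8587 of 16330. These calls depended on which label was trusted: with groups taken from the description fields no gene of the whole table was called, and the median of the respiratory chain genes was 0.14. They also depended on the recipients. With limma-voom 5 were called, and with the recipient as a random block 1 was, ATP5S, at 0.77 ± 0.17 (SE; limma adjusted p = 0.0301).

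**Figure D4:**
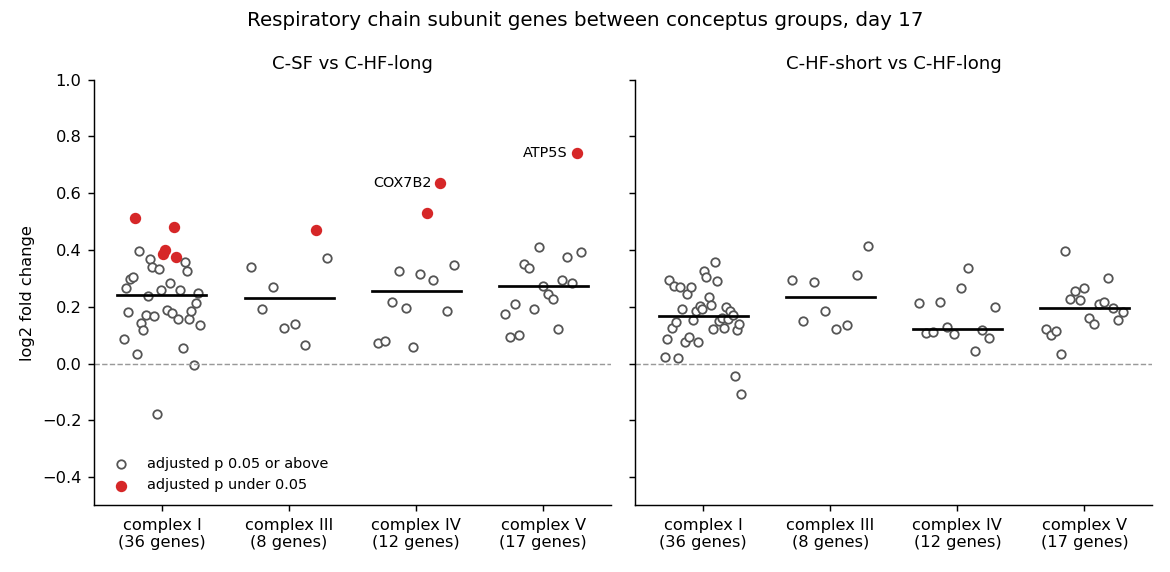
Log2 fold changes (y axis) of the respiratory chain and ATP synthase genes by complex (x axis) in C-SF (left, 10 libraries) and in C-HF-short (right, 7 libraries), both against the same 10 C-HF-long libraries. Each point is 1 gene, filled where the adjusted p was under 0.05, and black lines are medians by complex. Points lie mostly above 0 in both panels, with 9 filled in C-SF and none in C-HF-short.

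ATP5S had the smallest p. Its level was 4.73 to 12.6 CPM in C-HF-long (median 6.62), 5.35 to 9.24 CPM in C-HF-short (median 7.96) and 9.31 to 14.4 CPM in C-SF (median 12.1). C-SF lay above all of C-HF-short and above all C-HF-long libraries but 1. The log2 difference from C-HF-long was 0.74 ± 0.17 (SE, n = 10 and 10; edgeR adjusted p = 0.0128), and it was called in 29 of 30 alternatives, the exception being the groups by description fields. ATP5S was not called in any endometrial comparison. Its difference between NP-SF and NP-HF was named above because of its small unadjusted p, and that between P-SF and P-HF, also given above, was smaller. COX7A2L, the supercomplex factor, had 166 to 300 CPM in C-HF-long (median 222), 189 to 355 CPM in C-HF-short (median 248) and 210 to 410 CPM in C-SF (median 311). It was higher in C-SF than in C-HF-long by 0.53 ± 0.15 (SE; edgeR adjusted p = 0.0329), with overlapping groups. ATP5SL, at 0.39 ± 0.14 (SE; edgeR adjusted p = 0.071), was not called.

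Of the structural subunits 7 of 70 were called, 5 of them in complex I. NDUFA2 had 15.7 to 27.0 CPM in C-HF-long (median 24.5), 14.5 to 27.97 CPM in C-HF-short (median 24.8) and 20.6 to 47.5 CPM in C-SF (median 29.2). It was higher in C-SF than in C-HF-long by 0.51 ± 0.14 (SE; edgeR adjusted p = 0.0256). The other 4 sit in the membrane arm, where 4 of 20 genes were called. In the peripheral arm NDUFA2, an accessory subunit, was the one gene called, and 0 of the 7 core genes were. Differences between the arms were not tested. NDUFB6 was higher by 0.40 ± 0.12 (SE; edgeR adjusted p = 0.0389), NDUFB5 by 0.38 ± 0.12 (SE; edgeR adjusted p = 0.0441) and NDUFC2 by 0.38 ± 0.12 (SE; edgeR adjusted p = 0.0471). NDUFC1, the fourth, was at 0.48 ± 0.15 (SE; edgeR adjusted p = 0.0496), just inside the threshold, and ATP5G2, at 0.41 ± 0.13 (SE; edgeR adjusted p = 0.0513), was just outside it. NDUFB5 had 135 to 224 CPM in C-HF-long (median 162) and 168 to 289 CPM in C-SF (median 200).

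In complex III, UQCRH, the hinge subunit beside cytochrome c1, had 186 to 350 CPM in C-HF-long (median 243) and 228 to 492 CPM in C-SF (median 332). The log2 difference was 0.47 ± 0.14 (SE; edgeR adjusted p = 0.0346). In complex IV, COX7B2 had 4.65 to 10.8 CPM in C-HF-long (median 7.37), 7.24 to 11.6 CPM in C-HF-short (median 9.31) and 8.91 to 19.9 CPM in C-SF (median 11.4). The log2 difference from C-HF-long was 0.64 ± 0.18 (SE; edgeR adjusted p = 0.0276). The 2 highest C-SF libraries, near 20 CPM, were on the second sample sheet, which held 3 C-SF and 4 C-HF-short libraries and no C-HF-long library. With the first sheet alone COX7B2 was still called, at 0.55 ± 0.16 (SE; edgeR adjusted p = 0.0476), and 6 genes were called in all. Relative to COX7B, its reads were 6.96% ± 1.78 in C-HF-long (SD, n = 10), 9.12% ± 3.26 in C-HF-short (SD, n = 7) and 11% ± 5.44 in C-SF (SD, n = 10). None of the 5 F1 genes and none of the 9 widely expressed complex IV genes was called.

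**Figure D5:**
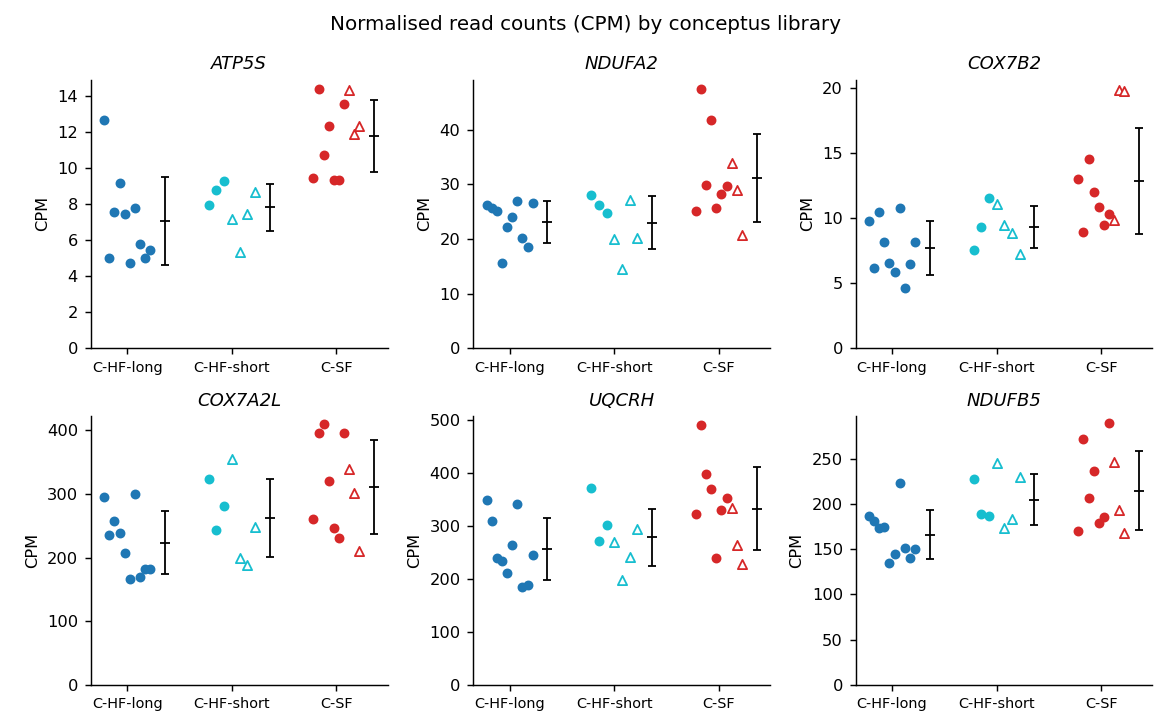
Normalised read counts (CPM, y axis, from 0) of 6 genes in each conceptus library by group (x axis), with the mean and SD to the right of each group's points (n = 10, 7 and 10). Filled circles are libraries of the first sample sheet and open triangles those of the second. ATP5S in C-SF (9.31 to 14.4 CPM) lies above all but 1 of the C-HF-long libraries, and the other 5 genes overlap between C-SF and C-HF-long.

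The number of calls between C-SF and C-HF-long moved with single libraries. It fell to 1 without C-HF-long replicate 9, to 2 without C-HF-long replicate 6 or 8 or C-SF replicate 2 or 3, to 3 without C-HF-long replicate 10 or C-SF replicate 4, to 4 without C-HF-long replicate 4 or 5, and to 5 without C-SF replicate 7, 9 or 10. It was 14 without C-HF-long replicate 1. C-HF-long replicate 9 was the lowest of its group for 29 of the 73 genes, and C-SF replicate 3 was the highest of its group for 33. Without scaling between libraries 5 were called, all higher. NDUFA2 kept its call in 24 of 30 alternatives, COX7B2 in 23, COX7A2L in 20, UQCRH in 16, NDUFB6 in 13, NDUFB5 in 11 and NDUFC2 in 8, and none changed direction.

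Other lists differed between the same groups. Of 75 cytosolic ribosomal protein genes 46 were higher in C-SF than in C-HF-long, with a median of 0.46, above that of the respiratory chain genes. Of 77 mitochondrial ribosomal protein genes 11 were higher (median 0.29). Of the 4 complex II genes SDHD was higher, by 0.43 ± 0.13 (SE; edgeR adjusted p = 0.0431), and of 20 complex IV assembly factors 3 were, SURF1, COA3 and COA6. Neither CYC1 nor CYCS was called. Of 18 regulators of mitochondrial biogenesis POLG2, a subunit of the mitochondrial DNA polymerase, was higher and PPARGC1B, a coactivator of nuclear genes for mitochondria, was lower. Of 15 complex I assembly factors NUBPL and TMEM126B were higher. Of 10 trophoblast markers GATA2, GATA3 and TFAP2C were lower, and the summed level was 63025 to 96048 CPM in C-HF-long and 28316 to 98538 CPM in C-SF. The others were not called. CDX2 (0.41 ± 0.17, SE; edgeR adjusted p = 0.115), KRT18 (0.48 ± 0.24, SE), KRT8 (0.32 ± 0.18, SE) and PAG11 (0.16 ± 0.45, SE) were higher. PAG2, TKDP1 and IFNT2 were lower. Of 7 stromal markers 3 were lower, at summed levels of 6.57 to 67.9 CPM in C-HF-long and 2.74 to 100.5 CPM in C-SF. COL3A1 was at 0 in 3 C-HF-long libraries and 1 C-SF library. COL1A2 and DCN were at 0 in 1 and 2 C-SF libraries and in no C-HF-long library. Of the same list PDGFRA was higher (1.11 ± 0.69, SE; edgeR adjusted p = 0.119) and THY1 lower (-0.97 ± 0.89, SE), both without a call. OXTR, from a list of 6 uterine markers, was higher (3.25 ± 0.99, SE; edgeR adjusted p = 0.0407), at 0 to 17.9 CPM in C-SF and 0 to 0.597 CPM in C-HF-long. Other genes of that list went the other way. DCN, also a stromal marker, was called lower (-2.28 ± 0.71, SE; edgeR adjusted p = 0.0439). COL3A1 (-2.32 ± 1.05, SE) and LUM (-1.69 ± 0.79, SE) were lower without a call. TIE1, an endothelial marker, was higher (2.13 ± 0.54, SE; edgeR adjusted p = 0.0185) at levels up to 1.25 CPM. The endothelial markers PECAM1 (-1.70 ± 0.58, SE; edgeR adjusted p = 0.0604) and VWF (-0.82 ± 0.63, SE) were lower without a call, and KDR was not called either. GATA6, the one endoderm marker called, was lower (-0.53 ± 0.17, SE; edgeR adjusted p = 0.0437). Without a call, APOA1 (0.38 ± 0.25, SE), SOX17 (0.44 ± 0.36, SE) and FOXA2 (0.23 ± 0.25, SE) were higher, and GATA4 and AFP were lower. The part of these markers in the results was not tested.

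No gene of the 73 was called between C-SF and C-HF-short, beside 0.00612% of all genes, or between C-HF-short and C-HF-long, beside 0% of all genes. DESeq2 and limma-voom also called none in either, and 3 genes in each had an unadjusted p under 0.05. In C-SF against C-HF-short the median was 0.07 and 54 of 73 were above 0. ATP5S was at 0.59 ± 0.18 (SE; edgeR adjusted p = 0.276) and COX7B2 at 0.52 ± 0.19 (SE; edgeR adjusted p = 0.376). In C-HF-short against C-HF-long the median was 0.18 and 71 of 73 were above 0, with UQCRQ of complex III at 0.41 ± 0.18 (SE; edgeR adjusted p = 0.933) and NDUFB5 at 0.33 ± 0.15 (SE; edgeR adjusted p = 0.933). This comparison and that of C-SF with C-HF-long share the C-HF-long libraries. With groups from the description fields no gene was called in either, and the medians were -0.12 for C-SF against C-HF-short, of opposite sign, and 0.26 for C-HF-short against C-HF-long.

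Length itself was tested in the 20 conceptuses whose titles give one, from 1.2 to 17 cm, as a slope per doubling of length with the sample sheet as a covariate. None of the 73 genes was called, beside 0% of 15592 genes, and 7 had an unadjusted p under 0.05. DESeq2 and limma-voom also called none. The smallest p values were those of NDUFS8 and NDUFS7, core subunits that carry the iron-sulfur clusters nearest to ubiquinone, with slopes of 0.27 ± 0.08 (SE; edgeR adjusted p = 0.266) and 0.24 ± 0.08 (SE; edgeR adjusted p = 0.324). NDUFS8 ranged from 21.3 CPM in a C-SF conceptus of 2 cm to 62.3 CPM in C-SF replicate 3, without which its slope was 0.20 in log2 per doubling. Its slope without the sheet covariate was 0.03. With lengths from the description fields the slopes were 0.00 for NDUFS8 (edgeR adjusted p = 0.995) and 0.04 for NDUFS7 (edgeR adjusted p = 0.912). Without that covariate 2 other complex I genes were called, NDUFA10 at 0.19 ± 0.05 (SE; edgeR adjusted p = 0.0378) and NDUFA13 at 0.23 ± 0.06 (SE; edgeR adjusted p = 0.0442). The second sheet held conceptuses of 1.2 to 4 cm.

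In 8 recipients that gave 2 conceptuses of different length or size class, the longer was compared with the shorter. None of the 73 genes was called, beside 0% of 15337 genes, and none had an unadjusted p under 0.05. DESeq2 called none. The median was -0.05, beside 0.01 over all genes. By the description fields none was called and the median was 0.19, of opposite sign. In 5 of the 8 pairs both conceptuses were on the same sample sheet. In the others the shorter was on the second sheet and the longer on the first. The sheet term takes up those other pairs, so the estimates rest on the 5. NDUFA2 was lower in the longer conceptus of 6 of 8 pairs, with an estimate of -0.29 ± 0.16 (SE; edgeR adjusted p = 1). NDUFB11 was lower in 5 of 8, the 5 that shared a sheet, with an estimate of -0.22 ± 0.13 (SE; edgeR adjusted p = 1).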

How the data were processed

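Messenger RNA was sequenced from a stranded library kit, per the labels' protocols. The authors deposited 1 table of read counts per gene for 52 libraries, made with HISAT2, StringTie and edgeR on the UMD3.1 build, per the submitters' processing notes. For tool versions and the strand setting of the counting, nothing is given in the sources used here. Many subunit genes have near-identical pseudogene copies, so the assignment of reads among them is uncertain. Of 32671 lines, 1020 were empty and 31651 named a gene. The 78 genes were taken by name, and 61 names were current symbols and 17 synonyms in a RefSeq name table of another build, so no coordinates are given.

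Groups came from sample titles and source labels. Replicate numbers follow accession order and pair nothing. Library numbers in the description fields of the conceptuses fell into a first series of 20 and a second of 7. These series are called sample sheets here, which is an inference. The same fields conflicted with most titles, so each fit with the sheet as covariate carries that doubt. Endometrial and conceptus libraries were fitted separately with edgeR 4.0.16 in R 4.3.3: genes passed filterByExpr (minimum count 10, minimum total count 15), libraries were scaled by TMM, and quasi-likelihood tests were adjusted by Benjamini-Hochberg over all genes tested and called at 0.05. All groups of a tissue shared one estimate of the spread. Standard errors were the log2 fold change divided by the square root of F. CPM are TMM-scaled within tissue. The pair test had recipient and sheet as terms. Isoform ratios are ratios of counts, without a test. Alternatives used DESeq2 1.42.0, limma 3.58.1 (voom, with recipient as a random block for conceptuses), other scalings, no filter, and libraries left out. The fits were tested on simulated data.

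The members, the lists of related genes and the markers were chosen with earlier results of these data known. Genes named from a comparison were up to 4 called genes per complex and direction with the smallest p. Where none was called, the 2 with the smallest p were named, and tissue isoforms were described by their reads and ratios in each tissue. NDUFC1, NDUFA8, NDUFV1, ATP5G2 in the conceptus comparison, NDUFS5, SDHA and genes called under 1 alternative alone were named after their values were seen. Endometrial libraries came from separate animals, and conceptuses of 1 recipient are not independent. The p-values set each difference against the spread between these libraries. The edgeR fits of conceptus group and of length had no recipient term and took conceptuses of 1 recipient as separate samples.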

Additional observations from a re-analysis of the deposited data

Results flagged for a closer look

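In 62 groups of values from 5 to 10 libraries, a library standing apart from the rest was sought by Dixon's test at the 95% level. The values were the CPM of named genes, the mean log2 CPM of the respiratory chain genes and their share of all counts. Chance alone flags about 1 group in 20, and 5 groups were flagged. NP-HF replicate 5 had 29.4 CPM of NDUFB8, the other 4 NP-HF libraries 34.2 to 35 CPM. NP-HF replicate 4 had 45.8 CPM of NDUFB9, beside 36.9 to 38.8 CPM, and 104 CPM of ATP5G3, beside 69.6 to 78.1 CPM. P-HF replicate 3 had 97.4 CPM of UQCRFS1, beside 70.3 to 77.5 CPM, and 204 CPM of ATP5C1, beside 162 to 173 CPM. These last 2 libraries were also the highest of their groups for 47 and 59 of the 74 genes.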

How the results depend on the processing

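In P-HF against NP-HF, 14 genes were called, and 11 to 16 with RLE size factors, no filter, DESeq2, limma-voom or only the 2 groups compared. The count was 9 with no scaling between libraries and 30 with P-HF replicate 1 left out together with P-SF replicate 5, and 6 to 20 with each library left out in turn. In P-SF against NP-SF, 1 was called, and 0 to 2 with a library left out. In P-SF against P-HF, 0 were called, 0 to 1 with a library left out, and 13 with that pair left out. In C-SF against C-HF-long, 9 were called: 3 with no filter, 0 with groups by description fields, 5 with limma-voom, 1 with its recipient block, 5 with no scaling, and 1 to 14 with a library left out. RLE, DESeq2, no sheet covariate, the first sheet only and library sizes without RN7SL1 and RMRP gave 6 to 13. The length slope had 2 calls without the sheet covariate and 0 otherwise. The causes of these moves were not tested, and the shares of all genes called under most of these alternatives are not given here.

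The other comparisons kept 0 calls under every alternative run. Of 495 values of named genes under alternatives, 347 kept their side of the threshold, 148 lost their call and 0 reversed. With a pseudocount of 1 in place of 0.5, the mean log2 isoform ratio moved by less than the SD between libraries in each of the 30 combinations of pair and group that had a library with at least 10 reads of the rarer gene. Below that the ratio follows the pseudocount: COX6A2/COX6A1 in NP-SF, at 0 reads in every library, went from -11.92 to -10.92. The fits without scaling and with limma-voom without the block were added after the data had been seen. Replicate numbers were given in accession order and pair no samples, so the one paired comparison was that of conceptuses of 1 recipient. The recipient block stands in for shared recipients, with a consensus correlation of 0.296. Promoter motifs were not run. Genes of a few reads per library, such as COX6A2 and COX8B, are limited by depth.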
